A study of Mus musculus with 27 samples.

Results

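Arg1-positive tumour macrophages are taken here as cells of a dissociated mouse tumour that carry a macrophage receptor transcript and at least 2 transcripts of Arg1. They hold little complement C1q and no detected Mgl2. Single barcodes were kept with at least 1000 UMIs (unique molecular identifiers, each counting 1 captured RNA molecule), at least 500 genes and at most 10% mitochondrial UMIs. A member had at least 1 UMI of Csf1r or Adgre1, at most 1 UMI summed over Cd3d, Cd3e and Cd3g, at most 1 over Ncr1 and Klrb1c, and at most 1 over Xcr1 and Clec9a. It also had fewer than 20 UMIs of C1qa, C1qb and C1qc per 10000, 0 of Mgl2 and at least 2 of Arg1. These measured values chose 302 of 20299 kept barcodes, 117 in WT and 185 in KO, out of 5028 that passed the macrophage gates.

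The cells came from MC38 tumours (a mouse colon adenocarcinoma line) in Ogt-flox mice, called WT, and in Ogt-flox Lyz2-cre mice, called KO. Both genotypes thus carry the floxed allele of Ogt, the gene of O-GlcNAc transferase, and KO mice also carry cre in the Lyz2 locus, which is active in macrophages, monocytes and neutrophils. CD45+ immune cells were sequenced as single cells in 1 matrix per genotype, although the labels list 2 samples per genotype, and tumour-associated macrophages gave 3 WT and 3 KO bulk RNA libraries. EGR2 CUT&Tag gave 1 peak list per genotype and ATAC-seq 1 merged list. Neither the age of the mice nor the number of animals behind a library is stated in the labels.

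Arginase 1, the product of Arg1, splits arginine into ornithine and urea. In tumours, macrophages with arginase are known for using up the arginine that T cells need, and they are often found in poorly oxygenated regions. Ccl2 and Ccl7 are chemokines that draw monocytes through CCR2, F13a1 encodes the A subunit of coagulation factor XIII, and Mrc1 encodes the mannose receptor CD206. O-GlcNAc transferase adds a single sugar, N-acetylglucosamine, to proteins of the nucleus and cytoplasm, and EGR2 is a zinc finger transcription factor of alternatively activated macrophages.

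The label was checked against its markers. Over all members of a matrix, summed and scaled to a common library total (CPM), Arg1 stood at 1600.5 in WT and 1575 in KO. The rule sets a floor of 2 Arg1 UMIs per member, so these levels do not check the label. Csf1r, the receptor of colony stimulating factor 1, was found in 89.7% of WT and 90.3% of KO members. The rule asks for Csf1r or Adgre1, so this share is no separate check. Cd68, a lysosomal protein of macrophages that is not in the rule, was found in 76.1% of WT and 71.4% of KO members. Of Ccl7, Ccl2, F13a1 and Mrc1, at least 2 were detected in 66.7% of WT and 69.2% of KO members. The same held for 54.4% and 59.1% of cells of the C1q-high gate, 25.6% and 28.5% of the Arg1-low gate, and 1.53% and 1.56% of a T cell gate (at least 2 Cd3 UMIs, no Csf1r or Adgre1). All 4 were detected in 16.2% of WT and 19.5% of KO members, and in 6.77% and 10.5% of C1q-high cells, which are deeper (median 10623.5 and 10293.5 UMIs against 7120 and 6545 in members). Mrc1 hardly separated them in WT, at 209 CPM in members and 206 CPM in C1q-high cells. Ccl7 did little more, at 451 and 397 CPM and in 32.5% and 32.7% of cells. Ccl2 differed by level, at 2909 and 1313 CPM, but less by detection, at 76.9% and 73.0% of cells. F13a1 did separate them, at 253 and 56.8 CPM. These marker comparisons are in WT. In KO members and C1q-high cells, Mrc1 stood at 336 and 256 CPM and Ccl7 at 801 and 465 CPM. Mrc1 was detected in 48.6% and 57.8% of these KO cells and Ccl7 in 44.9% and 41.9%. Ccl2 stood at 2355 and 1128 CPM in KO, and F13a1 at 299.8 and 78.2 CPM. The gates named here split the 5028 cells. C1q-high cells (842 WT, 744 KO) held at least 20 C1q UMIs per 10000, Mgl2-positive cells (261 and 241) held fewer and at least 1 Mgl2 UMI, and Arg1-low cells (1377 and 1261) held neither and at most 1 Arg1 UMI.

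Members had a median of 7120 UMIs in WT and 6545 in KO, 956581 and 1307591 UMIs in all, and 6 of them (2 WT, 4 KO) were called doublets by Scrublet. No barcode was shared by members of both matrices, against 25 among all kept barcodes. Bulk libraries held 7032540 to 32406170 counts. Lyz2, which carries cre in KO mice, stood at 3426 CPM in WT and 11.5 CPM in KO members. Ogt stood at 42.9 CPM (41 UMIs) in WT and 44.4 CPM (58 UMIs) in KO members (ratio 1.03, interval 0.682 to 1.58). In bulk it fell from 56.3 ± 6.24 to 34.7 ± 3.86 CPM (mean ± SD, n = 3 libraries, adjusted p = 2.98e-09 in edgeR). The position of the loxP sites is not stated, so a tag outside them does not check the deletion. The design cannot tell apart the loss of Ogt, the presence of cre and the loss of Lyz2 RNA.

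The genes that set members apart from the other macrophage-gate cells included neutrophil-attracting chemokines, low-oxygen genes and matrix genes, among others. The 15 leading genes, outside the genes of the rule, were ranked by the smaller of the WT and KO log2 ratios over the other gates. They were Cxcl3, Agbl3, Spp1, Cxcl1, Egln3, Rapgef4, Inhba, F13a1, Hilpda, Ptgs2, Emp1, Impa2, Sdc1, Cxcl2 and Ccl2. Since the cells were chosen on Arg1, these ratios are a description and were not tested.

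The CXC chemokines Cxcl1, Cxcl2 and Cxcl3 attract neutrophils through CXCR2. Cxcl3 (chr5:90786103-90789600, mm10) stood at 1480.3 CPM in WT members against 201 in the other gates, and at 934 against 149 in KO. Cxcl1 stood at 923 against 154 CPM in WT and at 351 against 94.8 in KO. Cxcl2 stood at 10204 and 10801 CPM in WT and KO members against 3835 and 4313 elsewhere. In WT, 31.4% of the Cxcl3 UMIs came from 1 member. Ccl2 stood at 2909 CPM in WT and 2355 CPM in KO members, above the 1124 and 939.9 CPM of the other gates.

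The promoters of Cxcl1, Cxcl2 and Cxcl3 are shown because all 3 genes lead and lie within 1 cluster on chromosome 5. Each line is RefSeq sequence (GRCm38.p6, the mm10 assembly, all on the plus strand), 250 bases before to 50 bases after the annotated start, at chr5:90890995-90891294, chr5:90903649-90903948 and chr5:90785851-90786150. Capitals mark a form of the NF-kB motif, GGGA, then any 1 or 2 bases, then TTCC, searched on both strands. The letters on both strands overlap by all but 1 base.

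Cxcl1: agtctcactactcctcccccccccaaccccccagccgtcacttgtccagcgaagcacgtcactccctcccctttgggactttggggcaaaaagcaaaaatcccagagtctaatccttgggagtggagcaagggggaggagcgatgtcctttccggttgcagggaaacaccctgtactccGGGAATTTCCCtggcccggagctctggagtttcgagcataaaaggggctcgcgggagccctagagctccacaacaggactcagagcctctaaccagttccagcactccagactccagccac

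Cxcl2: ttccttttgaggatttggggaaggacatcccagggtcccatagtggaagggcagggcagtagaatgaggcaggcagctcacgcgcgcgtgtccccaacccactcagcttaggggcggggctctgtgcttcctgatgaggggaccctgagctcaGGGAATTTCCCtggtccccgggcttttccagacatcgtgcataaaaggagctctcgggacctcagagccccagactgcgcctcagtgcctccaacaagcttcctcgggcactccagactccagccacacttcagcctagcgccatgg

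Cxcl3: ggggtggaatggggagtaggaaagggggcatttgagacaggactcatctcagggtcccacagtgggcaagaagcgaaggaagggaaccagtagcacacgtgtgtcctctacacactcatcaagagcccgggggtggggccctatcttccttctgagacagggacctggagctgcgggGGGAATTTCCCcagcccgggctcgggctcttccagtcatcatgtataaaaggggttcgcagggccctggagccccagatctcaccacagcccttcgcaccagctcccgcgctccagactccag

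The same word stands in all 3 promoters upstream of the start, and 3.12% of the 32851 RefSeq promoters of this length hold the motif. Of the 13 leading genes with a promoter in the table, these 3 held it. A match is a description of letters, not a binding site.

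Some genes of low oxygen and energy metabolism were also among those higher in members. Hilpda, which inhibits lipid droplet breakdown and is induced by hypoxia, was found in 92.3% of WT and 88.6% of KO members at 1459 and 1673 CPM, against 514 and 459.9 CPM in the other gates. In the T cell gate 50.5% and 57.8% of barcodes held it, at 238 and 306 CPM and median depths of 5661.5 and 6066 UMIs. Egln3, a prolyl hydroxylase of hypoxia inducible factors, stood at 129 and 125 CPM against 27.9 and 32.2. Of 25 tested genes of glycolysis and hypoxia, 6 were at least 1.5-fold higher than in the other gates in both matrices and 0 were lower. Over all 5246 tested genes (at least 20 CPM in 1 matrix and 50 UMIs over both), 3.35% were higher and 2.19% lower by that measure. Examples were Ero1a, an oxidase of the endoplasmic reticulum (355 and 326 against 109 and 137 CPM), Bnip3, a mitophagy receptor (212 and 205 against 72.5 and 96.9), and Ndrg1 (321 and 376 against 104 and 166).

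The Hilpda promoter is shown because it is the 1 leading promoter that overlaps a deposited ATAC region. It lies at chr6:29272238-29272537 (GRCm38.p6, RefSeq, plus strand), and capitals mark the core letters of the hypoxia response element, ACGTG or GCGTG on either strand.

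Hilpda: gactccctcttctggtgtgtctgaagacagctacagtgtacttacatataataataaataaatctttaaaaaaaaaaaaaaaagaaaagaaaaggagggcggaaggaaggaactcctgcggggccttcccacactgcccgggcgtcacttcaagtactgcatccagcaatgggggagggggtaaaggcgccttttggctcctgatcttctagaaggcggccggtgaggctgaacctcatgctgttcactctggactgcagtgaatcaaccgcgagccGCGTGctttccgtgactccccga

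These 5 letters are common: 43.8% of all promoters and 65.8% of those of tested genes hold them, against 9 of the 13 leading promoters.

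Matrix and vessel genes followed, with 7 of 16 tested at least 1.5-fold higher in members of both matrices. Spp1, the secreted phosphoprotein osteopontin (chr5:104435118-104441050), stood at 1307 CPM in WT and 931 in KO members against 275 and 220.1. Thbs1, thrombospondin 1, stood at 3515 and 2847 against 1589.5 and 959.7, and Vegfa, the vascular growth factor, at 692 and 663 against 296 and 301. F13a1 stood at 253 and 299.8 against 84.7 and 89.9 CPM. Ptgs2, the prostaglandin synthase COX-2, stood at 1019 and 1127 against 383 and 353 CPM. Agbl3 and Rapgef4 were found in 10.3% to 12.97% of members, and 60.6% of the WT Agbl3 UMIs came from 1 cell. Of 30 tested interferon response genes, 11 were at least 1.5-fold lower in members of both matrices and 0 were higher. Of 16 chemokine genes, 8 were higher and 3 lower.

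**Figure D1:**
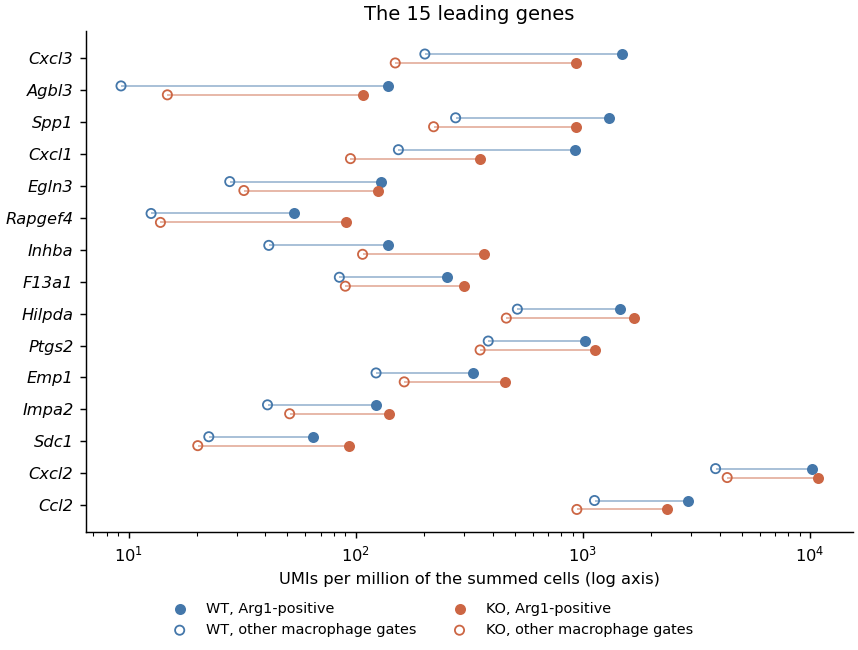
Levels of the 15 leading genes in CPM of the summed cells (log axis), with filled points for Arg1-positive members, open points for the other macrophage gates, blue for WT and orange for KO. Filled points lie to the right of open points for every gene, and Cxcl1 is at 923 in WT and 351 in KO members.

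At the edge of the Arg1 threshold, 38 members held exactly 2 Arg1 UMIs and 136 cells of the Arg1-low gate held exactly 1. Hilpda stood at 1339 CPM in WT and 1849 in KO cells with 2 Arg1 UMIs, and at 744 and 669 CPM in those with 1. Spp1 stood at 1903 CPM in the 13 WT and 319 CPM in the 25 KO cells with 2, and at 169 and 179 CPM in those with 1. Most Spp1 UMIs of these 13 WT cells came from 2 cells, with 8853 and 5363 UMIs of all genes, and most of the 13 held no Spp1. A larger Spp1 step in WT than in KO therefore cannot be read from these values. Summed over both matrices, cells with 0 Arg1 stood at 393 CPM of Hilpda and 146 of Spp1. Members with at least 20 Arg1 UMIs (57 cells) stood at 1774 CPM of Hilpda and 1733 of Spp1. Ly6c2, a monocyte marker, ran from 861 CPM at 0 Arg1 UMIs to 139 CPM at 20 or more. The bins share libraries and were not tested. The median member held 7 Arg1 UMIs in WT and 8 in KO, and the 10 highest held 32.5% and 19.4% of the Arg1 UMIs.

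Members were not alike in their chemokines. Each cell was thinned to 3000 UMIs, which left 110 WT and 175 KO members and left out 7 and 10. Spp1 was then detected in 42.7% of WT and 32.6% of KO members (52.1% and 43.2% before thinning). In the T cell gate 11.5% and 13.7% of unthinned barcodes held an Spp1 UMI, at median depths of 5661.5 and 6066 UMIs. Cxcl9, a chemokine induced by interferon gamma that attracts T cells, was found in 0 of 47 WT members with Spp1 (which allows a share of cells with a UMI, at this depth, of up to 6.38%) and in 4 of 63 without. In KO it was found in 1 of 57 members with Spp1 (1.75%, exact binomial 95% interval 0.0444 to 9.39) and in 22 of 118 without (18.6%, 12.1 to 26.9). In WT, 5 of 29 members with Ly6c2 held Spp1 (17.2%, 5.85 to 35.8) against 42 of 81 without (51.9%, 40.5 to 63.1). In KO the shares were 20 of 75 (26.7%) and 37 of 100 (37.0%), with intervals that overlap. Ccl7 was found in 25 of 75 WT and 65 of 122 KO members with Ccl2, and in 1 of 35 and 6 of 53 without. In the T cell gate 3.05% and 4.63% of unthinned barcodes held Cxcl9, and 2.59% and 3.66% held Ccl7. These intervals cover counting error only, and cells of 1 matrix are not replicates.

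The KO matrix held a larger share of Arg1-positive cells than the WT matrix. Members made up 1.15% of kept barcodes in WT (exact 95% interval 0.948 to 1.37) and 1.83% in KO (1.58 to 2.12), a ratio of 1.60 (1.26 to 2.04). Of the cells that passed the macrophage gates they were 4.51% and 7.61%, while that gate as a whole took 25.4% and 24.1% of kept barcodes. The C1q-high, Mgl2-positive and Arg1-low gates differed less, with KO over WT ratios of 0.944, 0.986 and 0.978 of their share of macrophages. With 1 matrix per genotype there is no test, and a difference between animals or preparations cannot be told apart from the genotype.

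Arg1 was also detected more often in KO outside the members. Among C1q-high cells, at least 2 Arg1 UMIs were found in 15.6% of WT (13.2 to 18.2) and 34.9% of KO (31.5 to 38.5), at median depths of 10623.5 and 10293.5 UMIs. Among Mgl2-positive cells the shares were 18.8% (14.2 to 24.0) and 29.0% (23.4 to 35.2). In the T cell gate, which should lack Arg1, they were 0.432% and 0.643%, with median depths of 5661.5 and 6066 UMIs. Kept barcodes held 6132 Arg1 UMIs in WT and 11987 in KO, of which members held 24.97% and 17.2%. Summed over the C1q-high gate, Arg1 stood at 192 CPM in WT and 521 CPM in KO.

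**Figure D2:**
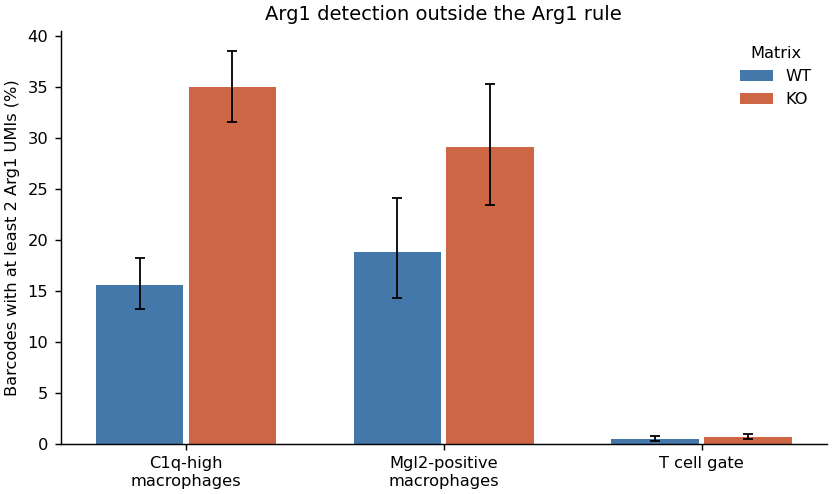
Share of barcodes with at least 2 Arg1 UMIs (percent) in 3 gates that the Arg1 threshold did not define, blue for WT and orange for KO, with exact binomial 95% intervals that cover counting error only. KO is above WT among C1q-high macrophages (34.9% against 15.6%) and Mgl2-positive macrophages (29.0% against 18.8%), and both bars of the T cell gate are below 1%.

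Within members, the largest KO over WT ratios of the named genes belonged to Tnfrsf9, Iigp1, Trp53cor1, Slamf8, Acod1 and Irgm1, and the smallest to Lyz2, Retnla and Mid1. Trp53cor1 was detected in 6.84% of WT and 7.03% of KO members, so its ratio rests on few cells. Of 5246 tested genes, 610 (11.6%) were at least 1.5-fold higher in KO and 229 (4.37%) at least 1.5-fold lower, with a median log2 ratio of 0.07. Higher genes were 72.7% of those past the fold, 60.0% when the matrices were scaled by the median ratio instead of the total, and 61.7% with no filter on low values. Values are single ratios with intervals for counting error only.

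Of 30 tested interferon response genes, 14 were at least 1.5-fold higher in KO members and 0 were lower, with a median log2 ratio of 0.57. Iigp1, an immunity-related GTPase, stood at 17.8 CPM in WT and 114 in KO (ratio 6.41, interval 3.87 to 11.3). Its relative Irgm1 stood at 47.0 and 180.5 (ratio 3.84, interval 2.78 to 5.40), and the guanylate-binding protein Gbp2 at 93.04 and 310.5 (ratio 3.34, interval 2.65 to 4.25). In the T cell gate Iigp1 stood at 82.9 and 162 CPM, above its level in members of the same genotype, Irgm1 at 54.2 and 76.6 CPM, and Gbp2 at 63.1 and 90.9 CPM. The list's other genes past the fold were Cxcl10, Cxcl9, Ifi47, Igtp, Gbp3, Gbp4, Gbp5, Gbp7, Irf1, Rsad2 (86.8 and 185 CPM) and Ifit2 (36.6 and 66.5). Isg15 (558 and 772), Ifit3 (46.0 and 45.1) and Mx1 (63.8 and 45.1) did not. After thinning, Irgm1 was detected in 10.9% of WT and 37.1% of KO cells, and Iigp1 in 1.82% of WT and 14.3% of KO cells. Cxcl10, a T cell attractant, stood at 187 and 565 CPM, with 56.4% of its WT UMIs in 1 cell. The T cell gate held Cxcl10 at 489 and 552 CPM in 40.8% and 40.9% of barcodes, above WT members and near KO members.

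The other gates also held interferon genes past the fold upward. Interferon response genes at least 1.5-fold higher in KO numbered 7 of 31 in C1q-high cells, 10 of 30 in Mgl2-positive cells and 9 of 32 in Arg1-low cells, with 0 lower in each. Over all genes 3.34%, 3.81% and 2.02% were higher and 1.69%, 2.25% and 0.686% lower in those gates, which hold more cells than the members do. Medians of the list were -0.01, 0.45 and 0.02 on the log2 scale.

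T cell transcripts were also higher in KO members. The 12 genes of the T cell list summed to 36.6 CPM in WT and 64.2 CPM in KO members, 0.764% and 1.14% of their level in the T cell gate, with Cd3e at 0 in WT. At least 2 UMIs of the list were found in 4 of 117 WT and 17 of 185 KO members, and the rule caps the Cd3 genes. The NK cell list summed to 51.2 and 78.0 CPM, with Ncr1 and Klra8 at 0 in WT, and the mature macrophage list to 3118 and 4216 CPM. Tnfrsf9, the costimulatory receptor 4-1BB and the gene with the largest ratio (8.36 and 110.1 CPM, ratio 13.2, interval 6.51 to 31.1), stood at 415 and 793 CPM in the T cell gate. AW112010, a transcript abundant in lymphocytes, stood at 138 and 473 CPM in members and 2309.6 and 2455 CPM in the T cell gate. The migratory dendritic cell list went from 112 to 26.8 CPM, and the neutrophil list stood at 330.3 and 317 CPM with Ly6g at 0. The part of RNA from such cells in these differences was not tested.

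The promoters of 4 of the 12 genes with the largest KO over WT ratios held the core of the interferon-stimulated response element, GAAA, then any 2 bases, then GAAA, on either strand, out of 10 with a promoter in the RefSeq table (3.44% of all 32851 promoters hold them, and 3.94% of those of tested genes). They are shown with these letters in capitals, for Irgm1 (chr11:48871371-48871670, minus strand), Gbp2 (chr3:142620413-142620712, plus), Cxcl10 (chr5:92348840-92349139, minus) and Slamf8 (chr1:172590519-172590818, minus), all GRCm38.p6. In Irgm1 a pair of matches overlaps. Other motifs were at least as frequent in the same 10 promoters. The NF-kB motif stood in 5 of them, against 4.29% of the promoters of tested genes. An AP-1 motif, TGA, then any 1 base, then TCA, stood in 4, against 5.65%.

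Irgm1: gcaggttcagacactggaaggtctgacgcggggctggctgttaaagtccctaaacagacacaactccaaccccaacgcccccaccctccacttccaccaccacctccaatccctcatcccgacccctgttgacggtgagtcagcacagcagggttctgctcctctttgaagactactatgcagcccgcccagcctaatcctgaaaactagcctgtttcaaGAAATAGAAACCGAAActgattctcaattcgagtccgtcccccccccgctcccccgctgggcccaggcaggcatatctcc

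Gbp2: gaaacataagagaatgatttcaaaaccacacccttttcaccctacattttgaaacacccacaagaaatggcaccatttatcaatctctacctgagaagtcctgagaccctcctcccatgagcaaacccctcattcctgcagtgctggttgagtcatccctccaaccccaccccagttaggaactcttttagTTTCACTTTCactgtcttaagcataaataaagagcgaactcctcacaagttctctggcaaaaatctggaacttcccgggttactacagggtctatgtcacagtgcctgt

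Cxcl10: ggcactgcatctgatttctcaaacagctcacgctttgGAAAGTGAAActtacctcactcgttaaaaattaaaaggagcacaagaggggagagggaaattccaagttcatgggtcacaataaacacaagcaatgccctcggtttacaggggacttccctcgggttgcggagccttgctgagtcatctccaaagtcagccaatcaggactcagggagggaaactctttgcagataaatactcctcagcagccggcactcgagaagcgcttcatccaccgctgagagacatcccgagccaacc

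Slamf8: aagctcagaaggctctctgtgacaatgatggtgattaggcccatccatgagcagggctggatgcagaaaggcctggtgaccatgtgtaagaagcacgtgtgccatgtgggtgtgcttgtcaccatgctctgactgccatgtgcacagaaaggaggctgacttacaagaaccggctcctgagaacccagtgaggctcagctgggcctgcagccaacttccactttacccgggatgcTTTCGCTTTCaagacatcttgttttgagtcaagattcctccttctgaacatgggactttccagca

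Slamf8, a signalling lymphocyte activation molecule of myeloid cells, stood at 14.6 CPM in WT and 64.2 CPM in KO members (ratio 4.39, interval 2.48 to 8.37). None of the 11 promoters of the genes with the lowest ratios held the element, which says only that these letters are not in the window.

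Some presentation, checkpoint and lineage genes passed the fold upward, read against 11.6% upward and 4.37% downward over all genes. Of 18 tested MHC class I presentation genes, 5 were past the fold upward and 0 downward, among them Nlrc5, the transactivator of class I genes (41.8 and 120.1 CPM), and the peptide transporter Tap1 (70.0 and 131). H2-Q6 and H2-Q7, near-identical class I genes, are uncertain one by one. Of 14 checkpoint and suppressive genes, 5 were higher and 0 lower: Cd274, which encodes PD-L1, stood at 441 and 874 CPM (ratio 1.98, interval 1.77 to 2.22), and its relative Pdcd1lg2 at 25.1 and 71.9. Entpd1 and Nt5e, which turn extracellular ATP into adenosine, stood at 209 and 370.1 CPM and at 33.5 and 61.2 CPM. Il10 rested on 17 and 46 UMIs. Of 18 myeloid transcription factors, 4 were higher and 0 lower, among them Maf at 225 and 431 CPM, Irf8 at 201 and 330.4 and Cebpa at 53.3 and 85.7.

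Of 12 tested arginine and polyamine genes, 3 were past the fold upward, 0 downward and 9 did not pass, against 11.6% upward over all genes. The rule selects members on their Arg1 UMIs, so their Arg1 level is not compared. Nos2, the inducible nitric oxide synthase that competes with arginase for arginine, stood at 30.3 CPM in WT and 83.4 in KO (29 and 109 UMIs, ratio 2.75, interval 1.81 to 4.30). Ass1, which rebuilds arginine from citrulline, stood at 62.7 and 115 CPM, and the arginine transporter Slc7a1 at 31.4 and 54.3. Acod1, which makes itaconate, stood at 68.0 and 264 (ratio 3.88, interval 2.97 to 5.14). In the C1q-high gate Nos2 went from 8.43 to 67.6 CPM.

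Chemokines and matrix genes went both ways. Ccl7 stood at 451 CPM in WT and 801 in KO members (ratio 1.78, interval 1.59 to 1.99), and Ccl12 at 56.5 and 127, while Cxcl1 (ratio 0.380, interval 0.339 to 0.426), Cxcl3 and Ccl6 were lower in KO. The count over 16 tested chemokines was 5 higher and 3 lower. Mrc1 stood at 209 and 336 CPM (ratio 1.61, interval 1.36 to 1.91) and Inhba, a subunit of activin A, at 138 and 366 (ratio 2.65, interval 2.18 to 3.24). Of 16 matrix genes, Mmp13, the collagenase 3, and Plau, the urokinase, were higher, and Fn1 (fibronectin, 669 and 408 CPM) and Serpinb2 were lower. Spp1 stood at 1307 and 931 CPM (ratio 0.712, interval 0.658 to 0.771), short of the fold.

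Among lower genes, Mid1, a ubiquitin ligase, held 91 UMIs in WT and 17 in KO members (ratio of CPM 0.137, interval 0.0763 to 0.231). Trem2, a lipid receptor of macrophages, stood at 113 and 45.9 CPM, and Il6 at 100.4 and 37.5, with 46.9% of the WT Il6 UMIs in 1 cell. Retnla, a marker of alternative activation in mice, was found in 4.27% of WT and 0.541% of KO members, so 109.8 and 2.29 CPM rest on few cells. Rabgap1l is among the lowest ratios (0.313, interval 0.214 to 0.449), but 72.8% of its WT UMIs came from 1 cell. Areg, the growth factor amphiregulin, stood at 224 and 78.8 CPM in members and 315 and 378 CPM in the T cell gate.

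The remaining lists are given by their counts. None of 25 glycolysis and hypoxia genes passed it in either direction, and the same was true of 6 OGT and hexosamine pathway genes. Lists with a single gene past it included cholesterol synthesis (Msmo1 of 11, higher) and MHC class II (H2-Aa of 9, higher). Of 23 EGR, AP-1 and immediate early genes, 0 were higher and 4 lower: the heat shock genes Hspa1a and Hspa1b, which share sequence, Nr4a1 and Klf2. Egr2 itself stood at 144 and 149.9 CPM (ratio 1.04, interval 0.831 to 1.301). The counts were 3 higher and 3 lower of 15 lipid genes, 4 and 1 of 13 scavenger and lectin receptors, 3 and 1 of 14 complement and efferocytosis genes, 2 and 1 of 16 interleukin 1 and inflammatory genes, and 0 and 2 of 18 antioxidant genes. Of the cell cycle list, 1 gene passed the level filter.

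**Figure D3:**
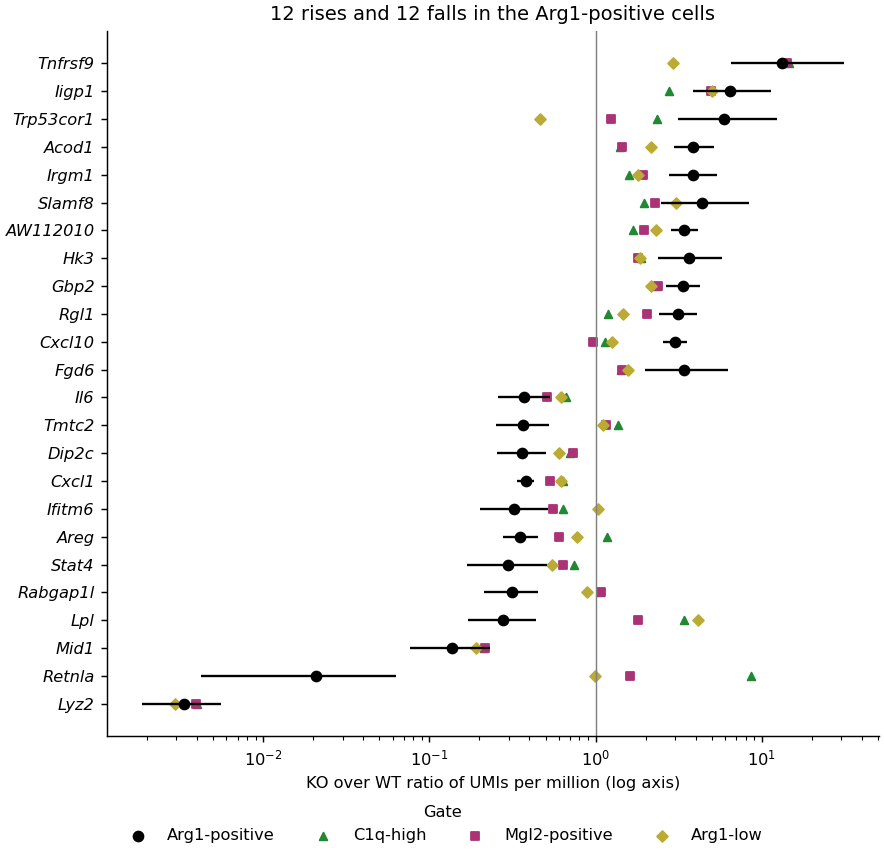
KO over WT ratio of CPM (log axis) for the genes with the 12 largest and the 12 smallest ratios in members, with black points and exact 95% intervals for members (counting error only) and coloured points for the 3 other macrophage gates. Tnfrsf9 and Iigp1 lie above 1 in every gate, Lyz2 and Mid1 below 1 in every gate, and Lpl is at 0.278 in members and above 1 in the other gates.

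Bulk RNA of tumour macrophages gave the replicated comparison, with libraries the rule did not use. There most genes that lead in Arg1-positive cells fell in KO. Of 12939 tested genes, 2432 rose (18.8%) and 2442 fell (18.9%), or 37.7% in all, at an adjusted p below 0.05 in edgeR. Rises were 49.9% of these calls, and 65.7% under scaling by total counts. KO and WT libraries did not overlap for 6022 of the 12939 genes (46.5%), so a lack of overlap is common here. Of the 13 leading genes tested in bulk, 11 fell and 1 rose, with a median log2 fold change of -0.71 against -0.00128 over all tested genes. Agbl3 and Rapgef4 did not pass the count filter. In bulk, fewer cells of a type and less RNA per cell cannot be told apart, and the share of Arg1-positive cells in these preparations is not known.

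Arg1 (chr10:24915208-24927470, mm10) stood at 239, 220.1 and 214 CPM in WT and 156, 170.0 and 152 CPM in KO. Every KO library was below every WT library, and Arg1 fell from 224 ± 12.97 to 159 ± 9.57 CPM (mean ± SD, n = 3, edgeR log2 change of -0.50 with an SE of 0.0460, adjusted p = 6.51e-15). In the single-cell matrices the Arg1 UMIs of all kept barcodes went the other way, from 6132 to 11987. Ccl2 stood at 285, 300.0 and 284 CPM in WT and 197, 195 and 207 CPM in KO. Ccl7 stood at 119.9, 115 and 131 CPM in WT and 78.8, 78.3 and 85.8 CPM in KO. Both chemokines fell without overlap, with log2 fold changes of -0.54 (adjusted p = 1.75e-19) and -0.59 (adjusted p = 1.05e-12). F13a1 rose from 29.2 ± 2.53 to 43.7 ± 3.27 CPM (edgeR log2 change of 0.58 with an SE of 0.102, adjusted p = 3.18e-06), and Mrc1 rose from 209 ± 3.91 to 230.5 ± 1.15 CPM (log2 fold change 0.14, adjusted p = 0.00413).

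Spp1 stood at 178, 170 and 184 CPM in WT and 84.2, 86.1 and 85.9 CPM in KO. All KO values were below all WT values (log2 change -1.06, adjusted p = 1.36e-27). The ratio in members was 0.712. Cxcl1 stood at 128, 121 and 112 CPM in WT and 39.3, 43.5 and 43.3 CPM in KO. This was the largest fall among the 13 tested leading genes (log2 fold change -1.53, adjusted p = 1.98e-29), and Cxcl1 was lower in KO members too. Hilpda fell from 216 ± 10.9 to 127 ± 5.24 CPM (log2 fold change -0.77, adjusted p = 4.82e-23) and Egln3 from 38.9 ± 2.94 to 23.8 ± 3.58 CPM (-0.71, adjusted p = 3.34e-07). The other falls were Inhba (-0.89), Cxcl3 (-0.77), Sdc1 (-0.72), Cxcl2 (-0.71), Impa2 (-0.42) and Emp1 (-0.37), with adjusted p-values of at most 0.00054 (Impa2). Ptgs2 did not pass the test, at 459.7, 466 and 463 CPM in WT and 450.0, 457 and 469 CPM in KO (log2 fold change -0.01, SE 0.0296). Of the 27 glycolysis and hypoxia genes tested in bulk, 18 fell and 2 rose.

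**Figure D4:**
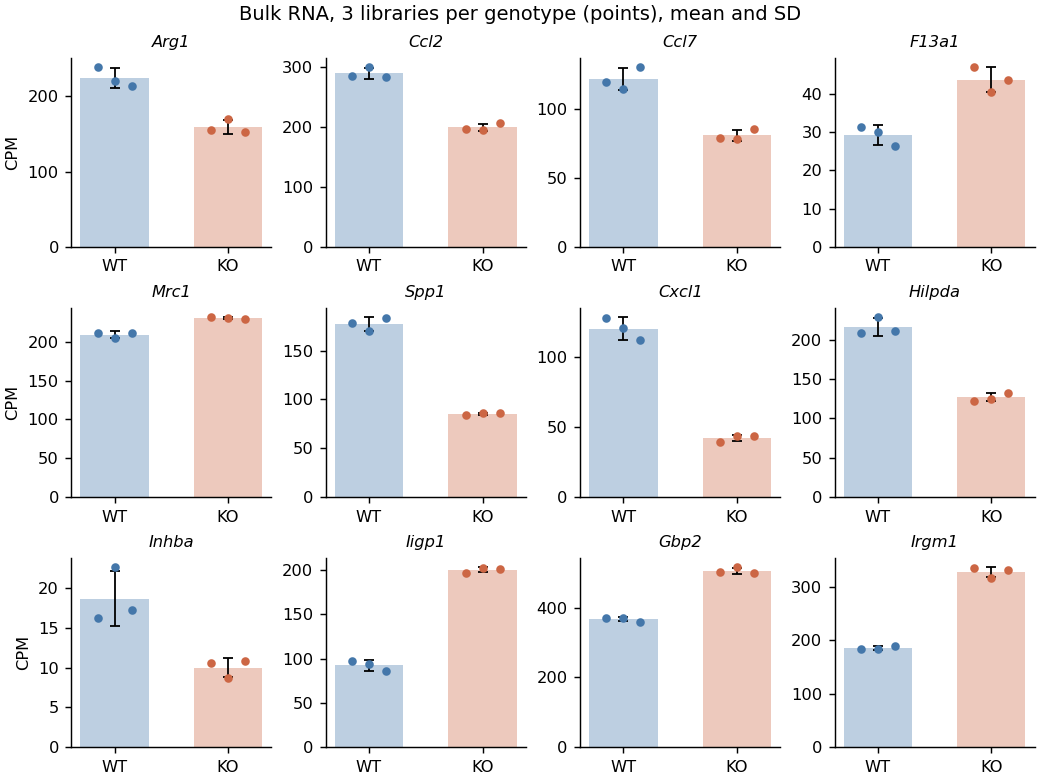
Bulk RNA level in CPM of 12 genes, with points for the 3 libraries of each genotype, bars for the mean and error bars for the SD, blue for WT and orange for KO. Arg1, Ccl2, Ccl7, Spp1, Cxcl1, Hilpda and Inhba are lower in every KO library, and F13a1, Mrc1, Iigp1, Gbp2 and Irgm1 are higher in every KO library. Such separation held for 46.5% of all tested genes.

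Of the 14 interferon response genes past the fold upward in KO members, 12 rose in bulk, Rsad2 fell and Cxcl10 did not pass. Iigp1 stood at 97.2, 94.4 and 85.6 CPM in WT and 197, 203 and 201 CPM in KO, and all KO values were above all WT values (edgeR log2 change of 1.11 with an SE of 0.0520, adjusted p = 2.84e-29). Irgm1 rose from 185 ± 3.06 to 328 ± 9.25 CPM (log2 fold change 0.82, adjusted p = 1.98e-29), Slamf8 from 166 ± 9.44 to 302 ± 10.4 CPM (0.85) and Gbp2 from 367 ± 6.39 to 505 ± 9.39 CPM (0.46). Of the 11 tested genes with the largest member ratios, 8 rose in bulk, Acod1 fell and Cxcl10 and Fgd6 did not pass. Of 32 tested interferon response genes, 16 rose and 9 fell. The falls held type I genes such as Isg15, Ifit1, Irf7 and Rsad2. T cell transcripts rose in the same libraries: 11 of 12 list genes rose, none was at 0 in every library, and the list summed to 192 to 201 CPM in WT and 357 to 371 CPM in KO. The part of T cell RNA in the bulk rises was not tested. Markers of migratory dendritic cells went down, summing to 648 to 668 CPM in WT and 271 to 275 CPM in KO libraries, with 7 of 8 genes falling and none at 0 in every library. B cell sums were 56.1 to 59.97 CPM in WT and 113 to 118 in KO (3 of 7 tested genes rose, 1 fell), and neutrophil sums 148 to 163 and 111 to 121 (5 of 8 fell, 1 rose). Monocyte sums were 2072 to 2103 and 2200.5 to 2224 CPM (8 of 12 rose, 1 fell), and those of cDC2, a class of conventional dendritic cells, 1534 to 1552 and 1246 to 1287 (4 of 8 fell). No gene of these lists was at 0 in every library, and their part was not tested.

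Across the named genes, member and bulk directions often met and sometimes opposed each other. Of 43 named genes past the fold upward in KO members and tested in bulk, 22 rose in bulk and 12 fell. Of 24 past it downward, 16 fell in bulk and 3 rose. Over all 593 higher genes tested in bulk, 37.8% rose and 15.01% fell, and over all 222 lower genes, 13.5% rose and 41.4% fell. Genes between the folds rose in 21.4% and fell in 28.9%.

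Among the genes that opposed each other, Inhba was 2.65-fold higher in KO members and fell from 18.7 ± 3.46 to 10.0 ± 1.19 CPM in bulk (adjusted p = 7.18e-06). Ccl7, Cebpa, Nos2, Plau, Mmp13, Pdcd1lg2, Msmo1, Acod1, Clec4e and H2-Aa were likewise higher in members and fell in bulk. Cebpa, for example, fell from 359 ± 11.7 to 216 ± 11.0 CPM (log2 fold change -0.74, adjusted p = 1.52e-27). In reverse, Lpl, the lipoprotein lipase, was lower in KO members (27 against 71 UMIs) and rose in bulk from 89.0 ± 9.63 to 166 ± 1.01 CPM (adjusted p = 1.65e-22). Mid1 did the same. Mid1 lost its bulk call without WT library 3 (adjusted p = 0.104) or KO library 3 (0.0819), and H2-Aa lost its call under scaling by total counts (0.362). Of the 12 genes with the lowest member ratios, 6 fell in bulk, 2 rose and 4 did not pass. Of the 6 falls, Areg, Ifitm6, Il6 and Dip2c each lost the call in at least 1 fit without a library, with adjusted p-values up to 0.174. The C1q-high gate, which holds 32.4% and 30.6% of macrophage-gate cells, had Lpl at 29.2 CPM in WT and 99.9 in KO. The bulk libraries and the single-cell matrices are separate preparations, and the difference between them was not tested.

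**Figure D5:**
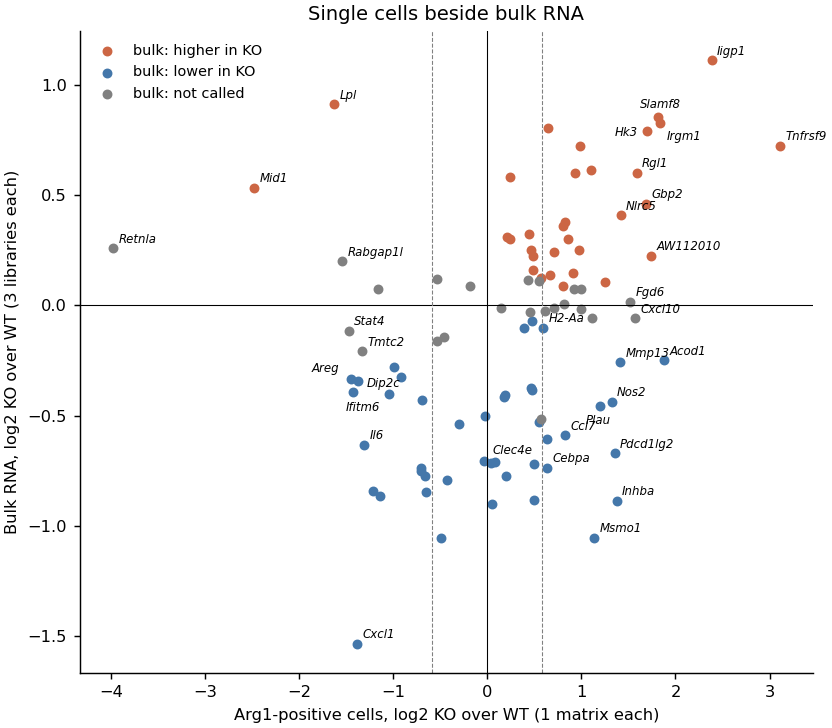
KO over WT log2 ratio in Arg1-positive members (horizontal axis, 1 matrix per genotype, pseudocount 5 CPM) against the bulk log2 fold change (vertical axis, 3 libraries per genotype) for named genes (without Lyz2), coloured by the bulk call, with dashed lines at the 1.5-fold limits. Iigp1 and Cxcl1 stand at opposite corners, with bulk values of 1.11 and -1.53, and Inhba, Msmo1 and Pdcd1lg2 lie at the lower right.

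EGR2 peaks lay near 1 of the leading genes. Within 10 kb of the gene start, 1 of the 15 leading genes had a WT EGR2 peak, against 7.91% of 5210 tested genes with coordinates, and 0 had a KO peak, against 6.39%. The 1 gene was Hilpda, whose peak lay at chr6:29265352-29265852 (mm10), 6886 bases upstream, rank 656 of 5408 by the authors' score. An ATAC region lay within 10 kb of Ccl2, Cxcl1 and Hilpda, 3 of 15 against 36.5% of genes. Among the 12 genes with the largest ratios, Irgm1 had a WT EGR2 peak at chr11:48869710-48870210, centred 1723 bases downstream of its start, and 5 of 12 had an ATAC region. No EGR2 peak and no ATAC region lay within 10 kb of the Arg1 start. The WT and KO EGR2 lists shared few positions, with 618 of 5408 WT peaks (11.4%) and 612 of 4995 KO peaks (12.3%) overlapping by at least 1 base. Each list is 1 per genotype, so a peak present in 1 list and not in the other has no replicate check.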

How the data were processed

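The members and gene lists (19 pathway and 15 cell type lists) were chosen with earlier results of these data known. Single-cell values are UMI counts of all barcodes, made with Cell Ranger 8.0.1 per the file headers. Bulk values are raw counts per gene that the authors made with featureCounts 2.0.6 on GENCODE vM10 models, per the file headers, counting each read of a pair without strand. Deposited peak lists give the authors' score per peak for regions of 501 bp, with 1 list per genotype for EGR2 and a merged one for ATAC, and the peak caller is not named. The build is mm10, per the submitters' processing notes, and promoters are RefSeq on GRCm38.p6.

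Gated cells were summed per matrix and scaled to CPM, and 5 CPM were added to both sides of a log2 ratio. Genes with at least 20 CPM in 1 matrix and 50 UMIs over both were compared, a 1.5-fold difference counted as past the fold, and ratio intervals were exact binomial at 95%. Cells of 1 matrix are not replicates, so no p-value was computed. For bulk counts, the test was that of edgeR 4.0.16 (quasi-likelihood F, TMM, filterByExpr, Benjamini-Hochberg adjustment) in R 4.3.3 on 3 WT and 3 KO libraries, whose separate origin in animals is not stated, so p-values measure the spread between libraries. Of 48440 gene identifiers 48058 had a symbol. Named genes were the 5 markers, Ogt, Egr2, Lyz2, the 12 largest and 12 smallest member ratios, the 15 leading genes and up to 4 genes per pathway list with the largest absolute ratio. Other genes were named after their values were seen. Doublets were called with Scrublet in scanpy 1.11.5 and kept. The edgeR test was checked on simulated counts, and the single-cell ratio intervals on sums simulated with counting error only. Alternatives covered gates, filters, scaling, thinning, leaving out each library, DESeq2 1.42.0 and peak windows. Chromatin samples other than EGR2 CUT&Tag and ATAC-seq were not analysed here, and the results of some genes are not reported here.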

Additional observations from a re-analysis of the deposited data

Results flagged for a closer look

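Some genes went in opposite directions between WT and KO in Arg1-positive cells and in another macrophage gate, with counting intervals on opposite sides of 1. These differences were not tested, since each genotype has 1 matrix. Gclm had a KO over WT ratio of 0.376 in Arg1-positive cells and of 1.65 in C1q-high cells (38.7 and 14.5 CPM in WT and KO members). Lpl had a KO over WT ratio of 0.278 in Arg1-positive cells and of 3.42 in C1q-high cells, 1.80 in Mgl2-positive cells, 4.14 in Arg1-low cells (74.2 and 20.6 CPM in WT and KO members). Retnla had a KO over WT ratio of 0.0209 in Arg1-positive cells and of 8.65 in C1q-high cells, 1.60 in Mgl2-positive cells (109.8 and 2.29 CPM in WT and KO members). Serpinb2 had a KO over WT ratio of 0.417 in Arg1-positive cells and of 1.60 in C1q-high cells, 1.73 in Arg1-low cells (75.3 and 31.4 CPM in WT and KO members). Trp53cor1 had a KO over WT ratio of 5.92 in Arg1-positive cells and of 0.465 in Arg1-low cells (11.5 and 68.1 CPM in WT and KO members). Retnla rests on 5 WT cells and 1 KO cell, and 38.0% of the WT Lpl UMIs came from 1 cell. Trp53cor1 (6.84% of WT and 7.03% of KO members) and Serpinb2 (8.55% and 5.41%) were also detected in few cells. Gclm held 37 UMIs in WT and 19 in KO members, with 32.4% of the WT UMIs in 1 cell. Over the main and alternative settings, the log2 ratio in members ran from 0.66 to 2.70 for Trp53cor1 and from -1.35 to -0.136 for Gclm.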

How the results depend on the processing

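The share of Arg1-positive cells among kept barcodes had a KO over WT ratio of 1.60 and of 1.48 to 1.95 under the 10 alternatives of gates, filters, denominator and thinning. The 610 genes higher and 229 lower in KO members (of 5246 tested) became 317 and 141 of 1741 tested when cells were thinned to 3000 UMIs, 336 and 112 with a pseudocount of 20 CPM, and 1503 and 932 of 15153 with no filter on low values. With a minimum of 50 CPM 147 of 3435 were lower, and scaling by the median ratio gave 474 higher and 316 lower. Among named genes past the fold in members, the single-cell log2 ratio of Rapgef4 changed sign with a C1q limit of 10 (-0.18). Those of Gpnmb (-0.10), Rabgap1l (0.94) and Tmtc2 (0.42) did so after thinning. Rabgap1l also changed sign without its top cell (0.12), an alternative chosen after seeing the data. Named genes short of the fold crossed 0 too, among them Spp1 (-0.876 to 0.0229 over all settings), F13a1 (-0.112 to 0.352) and Egr2 (-0.109 to 0.536). The cause was not tested, except that Rabgap1l rests on 1 cell. In bulk, the count of leading genes that fell was 11 in each alternative run. Scaling by total counts, which gave 3370 rises and 1757 falls, turned the log2 change to 0.0286 for Cfb, 0.0284 for Cxcl10, 0.058 for H2-Eb1, 0.0683 for H2-Q7, 0.0603 for Itgav, 0.0179 for Lgmn, 0.0739 for Ptgs2, 0.0729 for Slc7a1, and counting read pairs turned Cfb to 0.0236. Leaving out each library in turn gave log2 changes of -0.312 to 0.096 for Cfb, -0.0677 to 0.0745 for Fgd6, -0.0465 to 0.232 for Gclm, -0.036 to 0.0518 for Il10, -0.0587 to 0.0142 for Itgav, -0.0255 to 0.00604 for Ptgs2, -0.0656 to 0.0462 for Slc7a1, -0.447 to 0.0537 for Tmtc2, all with changes of sign. With a peak window of 2 kb, 0 leading genes had a WT EGR2 peak, against 2.26% of tested genes with coordinates. A wider window holds more. With 50 kb, 3 of 15 had a WT EGR2 peak, against 28.3%, and 2 a KO EGR2 peak, against 23.9%. An ATAC region lay within 50 kb of 13, against 74.3%. Within 50 kb of the Arg1 start lay a KO EGR2 peak, but no WT EGR2 peak and no ATAC region.

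Same-numbered WT and KO bulk libraries did not deviate together (correlations -0.00484, 0.00188 and 0.0112 over genes). With 3 libraries per genotype this cannot tell whether a number marks a shared animal or batch, and the labels do not say. With the replicate block, 2338 genes rose and 2353 fell, against 2432 and 2442, and of the named genes only H2-Eb1 changed its call (adjusted p = 0.0305). Depth limits the members: 117 and 185 cells leave genes below 20 CPM in both matrices out of the comparison.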

Other observations

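Cebpb, a transcription factor gene chosen after its values were seen, stood at 4316 CPM in WT and 4673 CPM in KO members (ratio 1.08, counting interval 1.04 to 1.13). In bulk it stood at 712, 773 and 719 CPM in WT and 148, 172 and 134 CPM in KO, without overlap, as did 46.5% of tested genes. Cebpb thus fell in bulk, while its ratio in members stayed short of the fold, and the difference was not tested. In C1q-high cells Cebpb stood at 2540 CPM in WT and 2246 in KO. It stood at 4695 and 4524 CPM in Arg1-low cells, and at 2622 and 2646 CPM in Mgl2-positive cells.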
